A study of Saccharomyces cerevisiae with 58 samples.

Results

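The genes described here encode the subunits of yeast RNA polymerase I that this enzyme does not share with RNA polymerase II, together with the initiation factor Rrn3. They were taken by symbol, as the probe sets annotated to RPA190, RPA135, RPA49, RPA43, RPA34, RPA14, RPA12, RPC40, RPC19 and RRN3. Each of the 10 genes matched 1 probe set, of 5498 probe sets that match 1 Saccharomyces cerevisiae gene and were all tested. All 10 lie above the 95th percentile of the S. pombe probe sets on the same chip, which read 5.10 on the log2 scale and serve as background.

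RNA polymerase I transcribes the large ribosomal RNA precursor in the nucleolus and does little else, while its own subunit mRNAs are made by RNA polymerase II. The mRNAs of its subunits belong to the large set of ribosome biogenesis transcripts that yeast lowers when growth is checked by stress. Rrn3 binds the stalk of the free polymerase and brings it to the promoter, and is released once transcription starts.

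RNA was read on 58 Affymetrix Yeast 2.0 arrays in 8 courses, 4 in each of 2 MATalpha strains. The wild type (strain 211, WY37) carries ura3-52, his3delta200, lys2delta201 and ade2. The rpb6 mutant (strain 212) carries the same alleles plus RPB6delta::HIS3 and, on a LEU2 centromere plasmid, an rpb6 copy with a glutamine-to-arginine substitution, and it grows more slowly. Rpb6 is itself a subunit of RNA polymerases I, II and III, so the mutation touches the enzyme described here as well as the one that transcribes its genes. All cultures were grown in rich medium (YPD) at 30 degrees to mid log phase. One course received 0.3 mM H2O2, an oxidant, and was sampled before it (0 min) and 5, 10, 15, 25, 35 or 45 min after it. Another received 0.1% methyl methanesulfonate (MMS), which alkylates DNA, and was sampled before it and 20, 40, 80, 100, 120, 140 or 180 min after it. The other two received 1,10-phenanthroline, a chelator that stops transcription, either alone (the reference) or 7 min after 0.3 mM H2O2, and were sampled when it was added and 5, 10, 20, 30, 40 or 50 min later. The labels give the phenanthroline as 100 mg/ml and the methods give the same figure in micrograms.

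Each course was 1 culture with 1 array per time point, so only untreated cells were read on 3 arrays in either strain, namely at 0 min of the reference, MMS and H2O2 courses. P-values and standard errors from the courses rest on the scatter of arrays about fitted curves, not on repeated cultures. That scatter was pooled over both strains of a stress, or over all decay courses, so it is not that of 1 course alone. A difference between strains or treatments cannot be told apart from a difference between cultures. The values, taken here as 3 sets of 14 H2O2, 16 MMS and 28 decay arrays normalized apart, are log2 levels made by robust multi-array average (RMA). They are relative to the other mRNAs of the same array, so a change in total mRNA per cell does not show. Array medians spanned 9.90 to 9.95 in the H2O2 set, 10.52 to 10.58 in the MMS set and 10.07 to 10.15 in the decay set. The strain markers were read in the untreated arrays: the alpha-factor gene MF(ALPHA)1 averaged 14.04 in wild-type and 13.89 in mutant cells, against 8.28 and 8.40 for the a-factor gene MFA1. The second alpha-factor gene, MF(ALPHA)2, read 13.32 to 13.78 in wild-type cells. Its mutant levels were 13.06 before H2O2 and 12.96 at the start of the reference, but 10.52 before MMS, so that this untreated mutant array stands apart for this gene. The RPB6 gene, listed as RPO26, averaged 13.58 and 12.98. HIS3 read 10.59 to 11.06 in the wild type, in which it is listed as deleted, and 11.13 to 12.38 in the mutant, and LEU2 read 13.63 to 13.90 and 14.20 to 14.36.

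In untreated cells all 10 genes had a lower mean level in the mutant, but by little, and none passed the test. RPA43, the stalk subunit that Rrn3 binds, showed the widest gap. It read 10.90, 11.42 and 10.91 in the 3 wild-type arrays and 10.28, 11.34 and 10.47 in the mutant. Its paired differences were -0.62 in the H2O2 set, -0.08 in the MMS set and -0.45 in the decay set, a mean of -0.38 ± 0.28 (SD, n = 3). The sign was therefore shared by all sets, while the size was set mostly by 2 of them.

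RPA49, which with RPA34 forms a pair resembling the general factor TFIIF, was lower by 0.25 ± 0.06 (SD, n = 3), with wild-type levels of 11.73, 12.42 and 11.96 and mutant levels of 11.50, 12.22 and 11.64. RRN3 was lower by 0.21 ± 0.04 in the same 3 pairs. RPC40, a subunit shared with RNA polymerase III, stood at the other end with a mean difference of -0.03 ± 0.12 and a higher mutant level in 2 of the 3 sets. RPA190, RPA49, RPA43, RPA34, RPC19 and RRN3, 6 of the 10, were lower in all 3 sets, as were 28.8% of all tested probe sets. With the array set as a block, limma gave adjusted p-values from 0.118 for RPA49 to 0.846 for RPC40. Thus 0 of the 10 passed at 0.05, where 2.4% of all probe sets did, although RPA190, RPA49, RPA43, RPA34 and RRN3 had unadjusted p-values under 0.05 (0.0143 to 0.0444). None of the 10 passed with any 1 of the 3 sets left out either. The plot of stress courses shows how these starting levels moved after treatment.

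**Figure D1:**
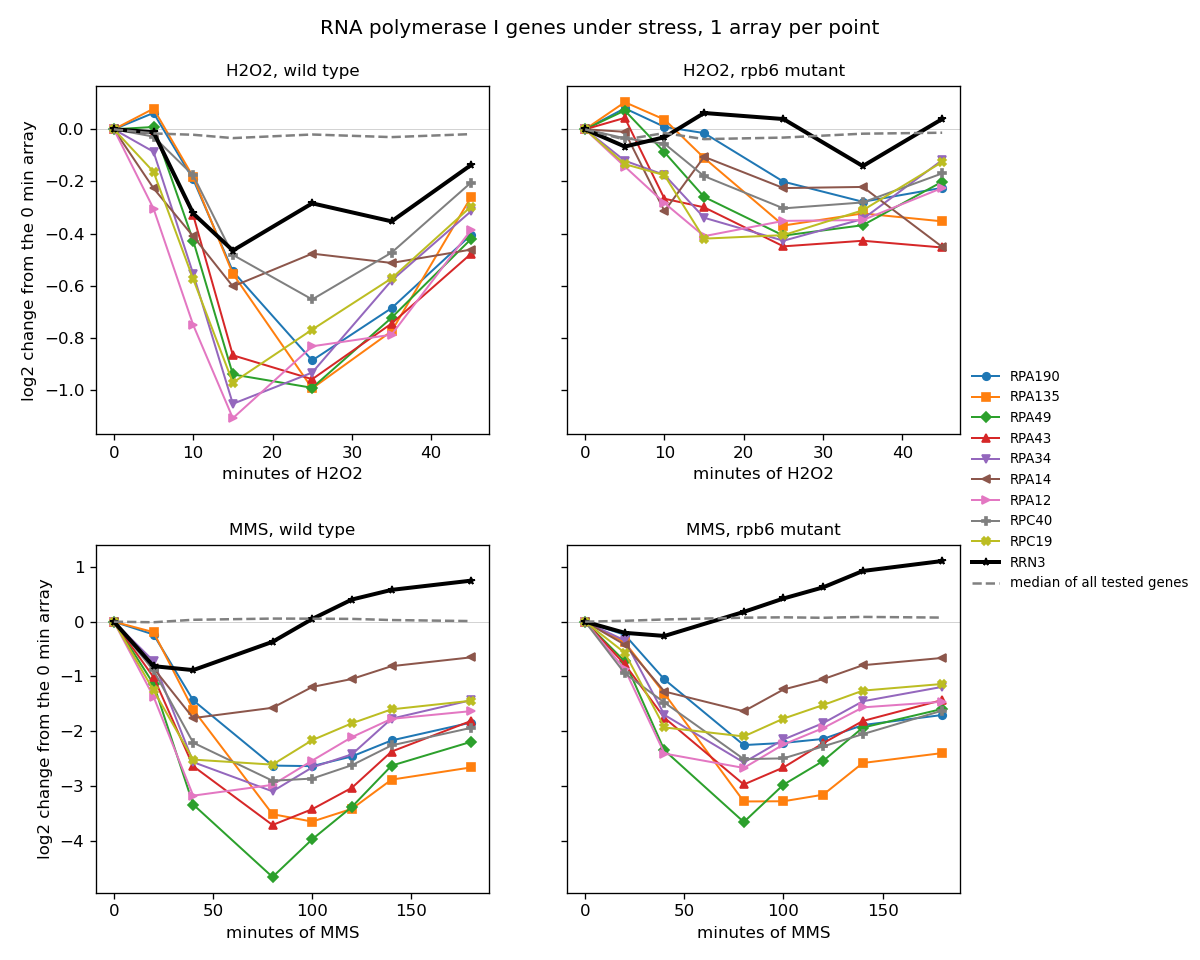
Log2 change from the 0 min array of the same course against minutes of H2O2 (upper panels) or MMS (lower panels) in the wild type (left) and the rpb6 mutant (right), 1 line per gene and 1 array per point, with the median of all 5498 tested probe sets dashed. In wild-type H2O2 all 10 lines dip, to between -0.28 and -0.99 at 25 min, and in MMS 9 lines fall far below 0 while RRN3 (black) ends at 0.75 (wild type) and 1.11 (mutant).

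The H2O2 course answers how these mRNAs move in a brief oxidative stress. In the wild type all 10 fell within 10 to 15 min and came part of the way back by 45 min. Their median change was -0.02 at 5 min, -0.37 at 10 min, -0.74 at 15 min, -0.86 at 25 min, -0.63 at 35 min and -0.35 at 45 min, whereas the median of all tested probe sets stayed between -0.03 and 0.00. Each course was fitted with a natural spline in limma, with p-values adjusted by Benjamini-Hochberg over all 5498 probe sets. Its response is the largest fitted change from 0 min at a sampled time, and the sign of that change gives the direction. The p-value beside a response comes from an F test of the whole curve, and the change at that time was not tested alone. For a strain difference the F test is of the difference between both curves. All 10 genes passed as lower, where 28.3% of all probe sets did.

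RPA190 and RPA135, the largest subunits, build the active centre. RPA190 read 11.87, 11.93, 11.68, 11.32, 10.98, 11.18 and 11.46 along the wild-type H2O2 course. RPA135 read 12.31, 12.39, 12.13, 11.76, 11.32, 11.54 and 12.05. Both were still at their starting level after 5 min and reached their lowest at 25 min, with fitted falls of -0.92 ± 0.09 (SE, adjusted p = 0.000393, limma) and -1.04 ± 0.09 (adjusted p = 0.000205, limma).

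RPA12, a small subunit that serves in cleavage of the nascent RNA, moved sooner. Its wild-type levels were 11.44, 11.13, 10.68, 10.33, 10.60, 10.65 and 11.05, so that it was already down by 0.30 at 5 min and was lowest at 15 min. RPA34 went from 12.57 to 11.51 at 15 min, and RPC19, the partner of RPC40 in the assembly platform of the enzyme, from 12.29 to 11.32. RPA34 and RPA12 were the 2 genes more than 2-fold below their start at 15 min, at 48.2% and 46.4% of it, where 3.46% of all probe sets were as far down.

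The 10 genes thus split evenly by the time of their lowest array. RPA190, RPA135, RPA49, RPA43 and RPC40 were lowest at 25 min, and RPA34, RPA14, RPA12, RPC19 and RRN3 at 15 min. With 1 array per time the difference between these times was not tested. RPA14, the smaller stalk subunit, and RRN3 moved least. RPA14 read 11.26 at the start and between 10.65 and 10.85 from 10 min onward, a fitted fall of -0.55 ± 0.11 (adjusted p = 0.00695, limma) with 23.4% of its fall regained at 45 min. RRN3 went from 9.99 to 9.53 at 15 min and back to 9.86 at 45 min, and it passed only narrowly (-0.44 ± 0.12, adjusted p = 0.0455, limma). Its call is lost under several other settings given at the end.

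In the rpb6 mutant 2 of the 10 genes, RPA135 and RPC40, passed as lower, where 10.4% of all probe sets did. Both calls are lost without the 10 min arrays or with 2 spline degrees of freedom, and that of RPC40 also with centred arrays and without 5, 15, 25 or 35 min. The median change was -0.13 at 10 min, -0.22 at 15 min, -0.36 at 25 min and -0.21 at 45 min, and at 15 min no gene was 2-fold below its start, where 0.455% of all probe sets were. RPA135 read 12.06, 12.17, 12.10, 11.95, 11.69, 11.74 and 11.71, a fitted change of -0.43 ± 0.08 (adjusted p = 0.0144, limma), and stayed down to the end. RPC40 read 12.43, 12.39, 12.37, 12.25, 12.12, 12.14 and 12.26, a fitted change of -0.30 ± 0.07 (adjusted p = 0.0429, limma).

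The other 8 did not pass. RPA43 changed by -0.52 ± 0.13 (adjusted p = 0.0741, limma), RPA49 by -0.46 ± 0.15 (adjusted p = 0.124, limma) and RPA12 by -0.40 ± 0.11 (adjusted p = 0.0950, limma). RPA190 had a smaller fitted change, -0.28 ± 0.08 (adjusted p = 0.0585, limma). RRN3 kept between 9.69 and 9.89 in all 7 mutant arrays, with a fitted change of 0.05 ± 0.12. Set against the wild type at the same minute, the change in the mutant was the higher one for 10 of 10 genes at 15 min and again at 25 min, where this held for 48.3% and 47.3% of all probe sets.

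The strain difference itself, the mutant curve minus the wild-type curve, was positive for all 10 genes and ranged from 0.34 ± 0.14 for RPA14 to 0.70 ± 0.13 for RPA190. None passed (adjusted p from 0.0727 for RPA135 to 0.370 for RPA14, limma), where 1.24% of all probe sets did. At an unadjusted p under 0.05 the count is 4, namely RPA190, RPA135, RPA12 and RPC40. The sign was thus shared by all 10, while the test across all probe sets did not establish a difference for any of them. The mean untreated levels were also lower in the mutant, as given above, though none passed. In the H2O2 set RPC40 started higher in the mutant, at 12.43 against 12.37. The part of the starting levels in the size of the falls was not tested.

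**Figure D2:**
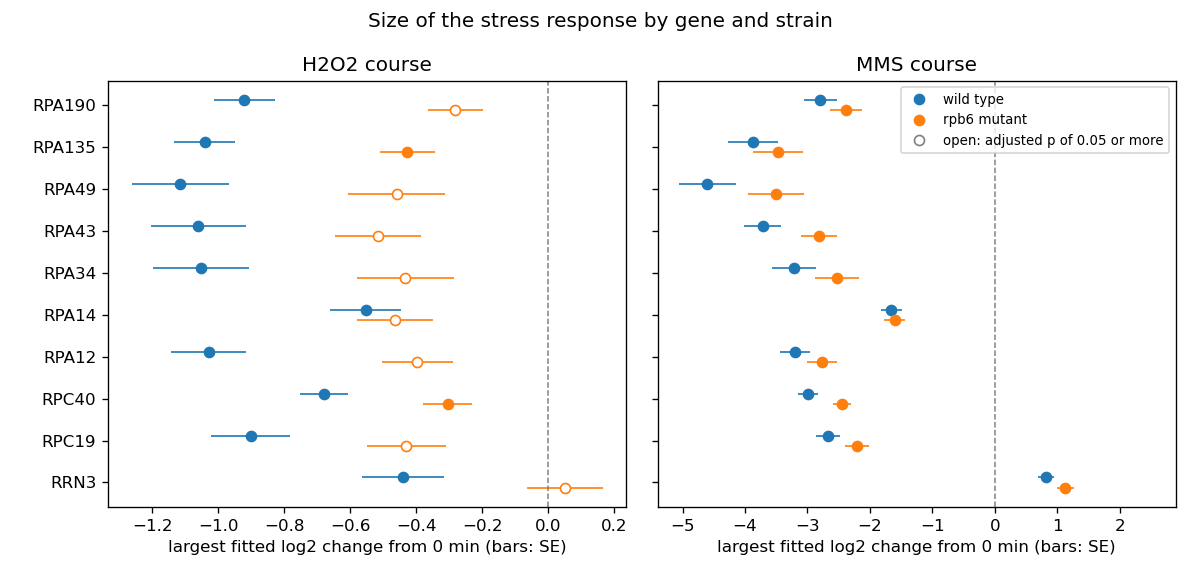
Largest fitted log2 change from 0 min for each gene in the H2O2 course (left) and the MMS course (right), blue for the wild type and orange for the rpb6 mutant. Bars are standard errors from scatter pooled over both strains. Open symbols mark an adjusted p of 0.05 or more in the limma F test of the whole curve. In H2O2 the wild type runs from -0.44 to -1.12 and 2 of the 10 mutant symbols are filled, while in MMS every symbol is filled and RRN3 alone lies above 0.

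In the MMS course the 9 subunits passed as lower in both strains and RRN3 as higher. In the wild type the median change was -0.87 at 20 min, -2.36 at 40 min and -2.94 at 80 min, and it was still -1.72 at 180 min. In the mutant it was -0.49, -1.59 and -2.54 at these first 3 times and -1.45 at 180 min. At 80 min 9 of the 10 genes were more than 2-fold below their start in each strain, where 17% of all wild-type and 14.9% of all mutant values were. Of all probe sets 41.4% in the wild type passed as lower and 45.9% as higher, and 39.2% and 44.8% in the mutant.

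RPA49 fell furthest. Its wild-type levels were 12.42, 11.28, 9.08, 7.76, 8.44, 9.04, 9.79 and 10.22, which put it at 3.95% of its start at 80 min, and its mutant levels were 12.22, 11.50, 9.87, 8.56, 9.24, 9.68, 10.29 and 10.63. The fitted falls were -4.60 ± 0.45 (adjusted p = 1.67e-05, limma) and -3.50 ± 0.45 (adjusted p = 0.000147, limma). By 180 min it had regained 52.9% of its fall, on the log2 scale, in wild-type cells and 56.4% in mutant cells. Its partner RPA34 went from 13.00 to 9.90 (wild type) and from 12.85 to 10.28 (mutant), both at 80 min.

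The catalytic pair had the smallest changes at 20 min among the 9 wild-type subunits and the smallest shares regained in both strains. RPA135 was at 12.71 before MMS in both strains and at 12.52 after 20 min in the wild type, then read 11.10, 9.19, 9.06, 9.29, 9.82 and 10.05. RPA190 read 12.34, 12.11, 10.91, 9.71, 9.70, 9.88, 10.17 and 10.50. At 20 min these genes had changed by only -0.19 and -0.23 while the remaining 7 subunits had fallen by 0.72 to 1.37. In the mutant the pair did not stand apart at 20 min, since RPA135 had changed by -0.38, beside -0.24 for RPA190, -0.34 for RPA34 and -0.42 for RPA14. By 180 min the wild-type pair had regained 27.1% and 30.1% of their falls, the smallest shares among the 9 subunits. The mutant shares were 26.9% and 24.4%.

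The stalk subunits differed from each other in size. RPA43 went in wild-type cells from 11.42 to 7.71 and in mutant cells from 11.34 to 8.37, both at 80 min, fitted falls of -3.72 ± 0.29 and -2.82 ± 0.29. RPA14 went from 12.15 to 10.39 at 40 min and from 12.22 to 10.58 at 80 min, with fitted falls of -1.66 ± 0.16 and -1.60 ± 0.16, the smallest of the 9 subunits in both strains. The largest adjusted p of these 4 falls was 3.02e-05, for RPA14 in the mutant (limma).

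RPA12 and RPC19 were already close to their lowest level at 40 min. RPA12 read 12.17, 10.80 and 8.99 over the first 40 min in the wild type and 9.19 at 80 min. RPC19 read 12.80, 11.55 and 10.28 and then 10.19. Its partner RPC40, at 12.90, 12.01 and 10.69, continued to 9.99 at 80 min and 10.03 at 100 min, so this pair shared with RNA polymerase III did not keep 1 time course.

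RRN3 took a course of its own. In the wild type it read 11.03, 10.22, 10.15, 10.66, 11.08, 11.43, 11.61 and 11.78, falling by 0.88 at 40 min before it passed its starting level at 100 min and ended 1.68-fold above it. In the mutant it read 10.81, 10.61, 10.55, 10.99, 11.23, 11.44, 11.74 and 11.92, a dip of 0.26 and an end 2.16-fold above its start. The largest fitted changes, both at 180 min, were 0.82 ± 0.13 and 1.13 ± 0.13. The whole curves passed (adjusted p = 5.51e-07 and 2.28e-06, limma F test), and the late rise alone was not tested. In the wild type the early dip and the late rise were of nearly equal size, and the direction reported for RRN3 there turns to -0.85 when each array is centred on its median and to between -0.88 and -0.91 when the 80, 120, 140 or 180 min arrays are left out. In the mutant it stayed a rise under every setting tried.

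All 10 strain differences in MMS were positive, from 0.24 ± 0.23 for RPA14 to 1.10 ± 0.64 for RPA49, and none passed (adjusted p from 0.203 for RRN3 to 0.979 for RPA135, limma), where 3.24% of all probe sets did. RRN3 alone had an unadjusted p under 0.05. The change in the mutant was above that in the wild type for 10 of 10 genes at 40 min and for 9 of 10 at 80 min, RPA14 being the exception, where 54.3% and 56.4% of all probe sets showed this order.

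After phenanthroline all 10 mRNAs were lost faster than the average mRNA in all 4 courses. A line of log2 level on time was fitted to the 7 arrays of each course, so a slope of 0 marks an mRNA that keeps its place on the array, and the median slope of all tested probe sets was between -0.0007 and 0.0018 per min. The median slope of the 10 genes was -0.0609 log2 per min in the wild-type reference, -0.0445 in wild-type H2O2, -0.0337 in the mutant reference and -0.0201 in mutant H2O2. These slopes rank mRNAs within an array and are not half-lives.

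**Figure D3:**
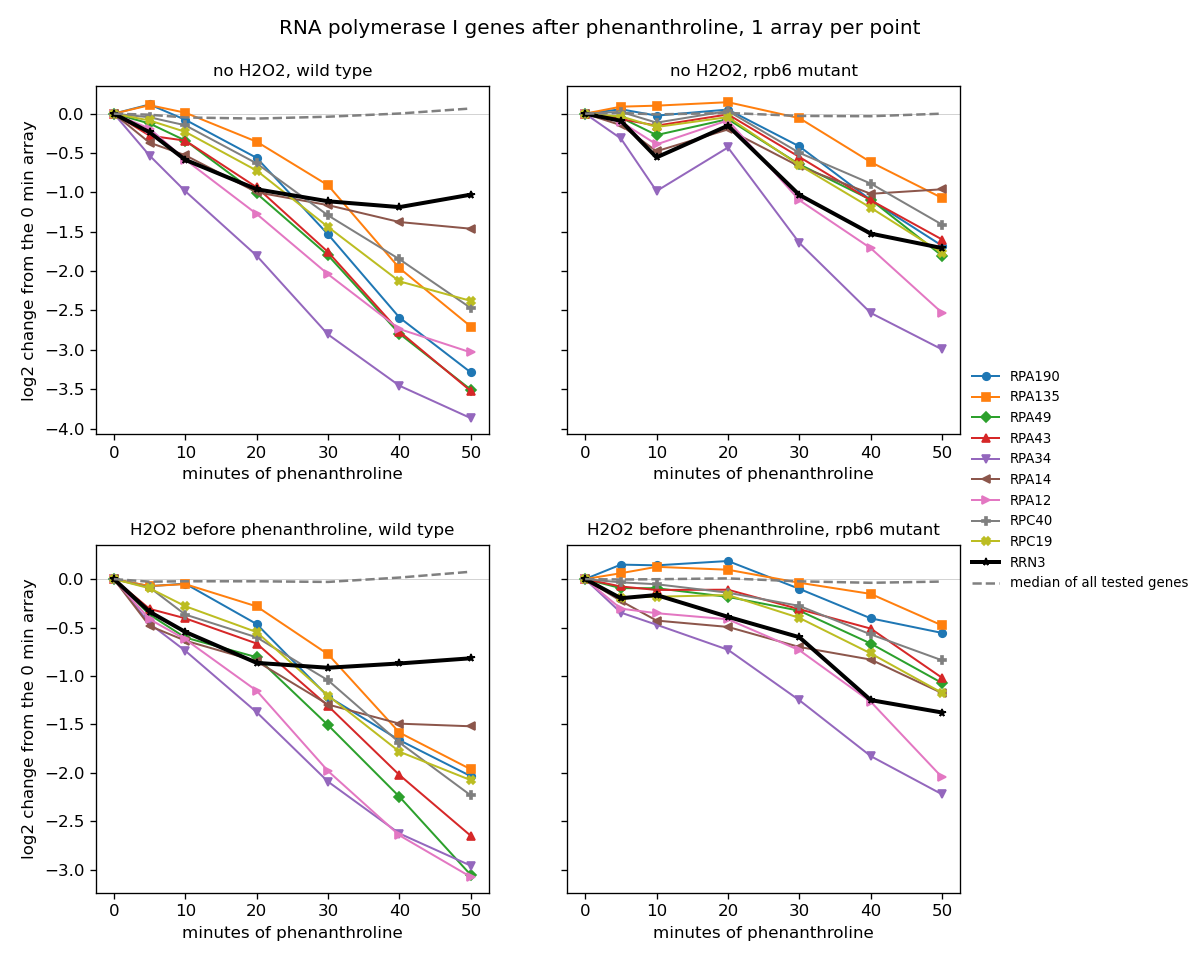
Log2 change from the 0 min array against minutes of phenanthroline, without H2O2 (upper panels) and with H2O2 added 7 min before it (lower panels), in the wild type (left) and the rpb6 mutant (right), 1 array per point. The members end between -1.03 and -3.87 in the wild-type reference and between -0.48 and -2.22 in mutant H2O2, and the 20 min array of the mutant reference lies above both of its neighbours for all 10 genes.

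RPA34 was lost fastest in the wild-type reference. It read 12.58, 12.05, 11.60, 10.78, 9.78, 9.13 and 8.71, a slope of -0.0796 ± 0.0048 (SE) per min, at percentile 0.346 of the slopes of all tested probe sets. In the mutant reference it read 12.21, 11.90, 11.23, 11.78, 10.57, 9.68 and 9.22, and its slope of -0.0589 ± 0.0048 was again the steepest of the 10. It fell from the first minutes, unlike the catalytic pair.

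RPA190 read 12.02, 12.14, 11.94, 11.46, 10.48, 9.43 and 8.73 in the wild-type reference, and RPA135 read 12.29, 12.40, 12.30, 11.93, 11.38, 10.33 and 9.58. Both kept their starting level for 10 min and fell only after it. In mutant H2O2 they held it still longer, with RPA190 at 11.54 at the start and 11.73 at 20 min, and RPA135 at 11.89 and 11.99. A single line describes such a course only in part, and its standard error includes this bend.

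RPA14 and RRN3 had the shallowest slopes in the wild type. RPA14 went from 11.55 to 10.08 in the reference and from 11.58 to 10.06 in H2O2, slopes of -0.0285 ± 0.0032 and -0.0293 ± 0.0032. RRN3 read 10.08, 9.85, 9.50, 9.12, 8.97, 8.90 and 9.05 in the reference, a fall confined to the first 20 to 30 min. In the mutant reference RRN3 continued down to 8.13 at 50 min, so that its slope there (-0.0355 ± 0.0047) was steeper than in the wild type (-0.0217 ± 0.0047), the reverse of the other 9 genes.

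**Figure D4:**
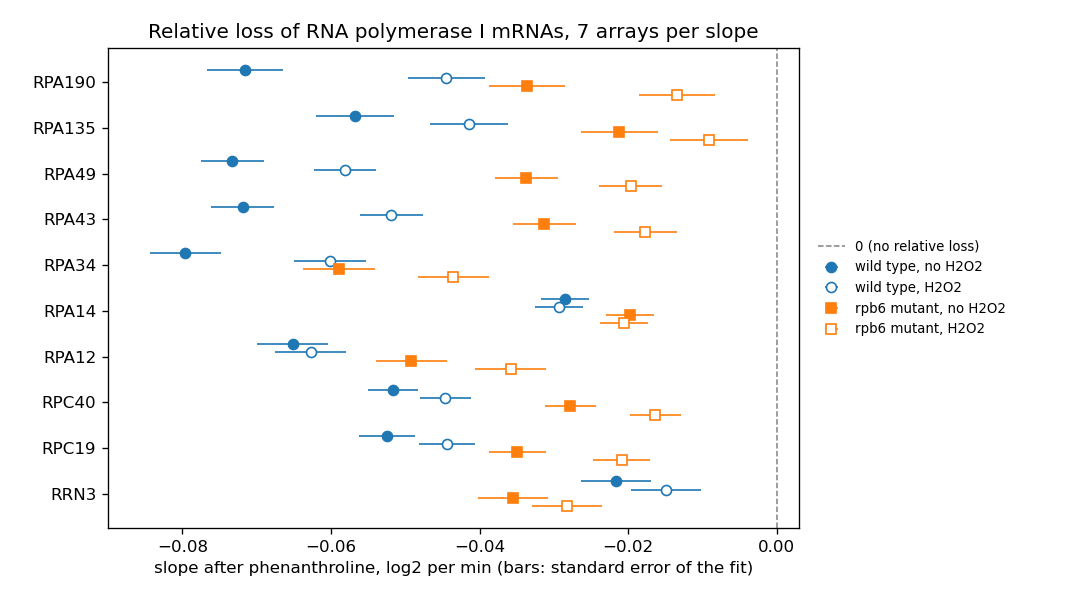
Slope of log2 level on minutes of phenanthroline for each gene in the 4 decay courses, 7 arrays per slope. Circles are the wild type, squares the rpb6 mutant and open symbols the courses with H2O2. Bars are standard errors from scatter pooled over the 4 courses, so a gene has the same bar in each of them. For 9 genes both squares lie to the right of both circles, and for RRN3 both lie to the left.

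The strain difference of the reference slopes was tested directly. It was positive, meaning slower relative loss in the mutant, for the 9 subunits. It passed for 7 of the 10 genes, where 17.7% of all probe sets passed as higher and 1051 of the 5498 as lower. The largest were RPA43 at 0.0406 ± 0.0060 per min (adjusted p = 2.09e-05, limma), RPA49 at 0.0395 ± 0.0059 (adjusted p = 2.41e-05, limma), RPA190 at 0.0379 ± 0.0073 (adjusted p = 0.000314, limma) and RPA135 at 0.0356 ± 0.0074 (adjusted p = 0.000673, limma). RPC40 at 0.0239, RPA34 at 0.0207 and RPC19 at 0.0175 also passed, whereas RPA12 (adjusted p = 0.0697), RPA14 (0.146) and RRN3, at -0.0138 (0.106), did not in the limma fit. The call of RPA34 is lost without the 0, 5, 10 or 40 min arrays and that of RPC19 without the 5 or 40 min arrays.

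By rank among all slopes of the same course the order was less uniform. RPA190 stood at percentile 0.928 in the wild-type reference and 3.55 in the mutant, RPA49 at 0.782 and 3.51, RPA43 at 0.909 and 4.42, RPA135 at 2.89 and 9.75, RPC40 at 3.58 and 5.69, and RPA14 at 9.89 and 10.8, a low percentile being a fast loss. RPA34 stood at 0.346 in both strains, RPA12 went from 1.71 to 0.855 and RPC19 from 3.47 to 3.22. By rank, then, 3 of the 9 subunits were not lost more slowly in the mutant reference, RPA34 and RPC19 among them although their slopes passed. At 50 min fewer of all probe sets were more than 2-fold below their start in the mutant. The shares were 13.9% (wild type) and 10.1% (mutant) in the reference, and 12.3% and 7.20% with H2O2. The part of this in the slope differences was not tested.

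In the courses with H2O2, 18.7% of all probe sets passed as higher and 1264 of the 5498 as lower. The strain difference again passed for 7 of 10 genes, all as higher. These were RPA49 at 0.0385 ± 0.0059 (adjusted p = 4.68e-05, limma), RPA43 at 0.0342, RPA135 at 0.0322, RPA190 at 0.0310, RPC40 at 0.0282, RPA12 at 0.0269 and RPC19 at 0.0235. RPA34 (0.0166, adjusted p = 0.0537), RPA14 (0.0087, adjusted p = 0.130) and RRN3 (-0.0133, adjusted p = 0.110) did not pass in limma. This contrast uses other cultures than the reference contrast and was added after the slopes had been seen. By rank the 7 called genes stood at higher percentiles in mutant than in wild-type H2O2, RPA12 the least far apart at 1.49 against 0.309. RPA34 stood at 0.582 against 0.437, while RPA14 (6.98 against 7.38) and RRN3 (2.86 against 17.1) stood lower.

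The mutant reference course holds an array that is out of order. Measured along the total change of that course, the 10 min array of all probe sets stood at 31.9% and the 20 min array at 9.15%, whereas in the other 3 courses the position rose at each time. For the 10 genes the same positions were 19.0% and 5.51%. Without these 2 arrays, or with them exchanged, all 7 called reference differences still passed, unlike with some of the other arrays left out (above), joined by RPA12 in both settings and, with the exchange, by RRN3 on the lower side.

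Between the courses with and without H2O2, 1 culture each, 2 of the 10 slopes differed in the wild type and none in the mutant. In the wild type the slope of RPA190 moved from -0.0716 to -0.0445, a change of 0.0271 ± 0.0073 (adjusted p = 0.0177, limma), and that of RPA43 from -0.0719 to -0.0519, a change of 0.0200 ± 0.0060 (adjusted p = 0.0345, limma). These 2 of 10 passed as higher, where 5.33% of all probe sets did, and both calls are lost without the 5, 40 or 50 min arrays and over the first 30 min alone. By rank RPA190 moved from percentile 0.928 to 2.38 and RPA43 from 0.909 to 1.15, whereas RPA49 moved the other way, from 0.782 to 0.546, and RPA12 from 1.71 to 0.309. RPA34 missed the threshold at 0.0194 ± 0.0068 (adjusted p = 0.0749, limma), and RPA14 stood at -0.0008 ± 0.0046.

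In the mutant the change was positive for 9 of 10 genes and reached 0.0202 ± 0.0073 in RPA190 (adjusted p = 0.125, limma). None of the 10 passed, where 2.71% of all probe sets did, although 6 had an unadjusted p under 0.05. Between the strains the change in slope differed by -0.0069 ± 0.0103 in RPA190 and by at most 0.0110 ± 0.0096, in RPA12, and none passed, where 0.637% of all probe sets did. No member had an unadjusted p under 0.05 in that contrast.

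The 0 min arrays of the H2O2 decay courses were taken after 7 min of H2O2 and give a further look at the early response in other cultures. Wild-type RPA34 was 12.58 without and 12.05 with H2O2, and mutant RPA34 was 12.21 and 12.01. RPA12 was 11.70 and 11.29, and 11.27 and 11.01. Averaged over both strains RPA34 was lower by 0.37 ± 0.10 (SE, adjusted p = 0.123, limma), RPA12 by 0.33 ± 0.07 (adjusted p = 0.0806, limma) and RPC19 by 0.31 ± 0.07 (adjusted p = 0.0911, limma). In all, 9 of the 10 were lower and RPA14 was higher by 0.11 ± 0.07, and 0 of 10 passed, where 6.26% of all probe sets did. The members with an unadjusted p under 0.05 were RPA49, RPA34, RPA12, RPC19 and RRN3.

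With all courses pooled, the profiles within the group ran close together apart from RRN3. Over the 50 arrays later than 0 min, the log2 change of each gene was set against the mean of the other 9, with the arrays of a course sharing 1 starting array. Pearson's r was between 0.85 (RPA135) and 0.98 (RPA43) for the 9 subunits and 0.00 for RRN3. The closest pair was RPA49 and RPA43, with r = 0.99. RPA43 and RPA190 are neighbours transcribed away from each other on chromosome XV (YOR340C and YOR341W in the R64 annotation), and their r was 0.97. RRN3 and RPA135 were the least alike, with r = -0.37.

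Among 5488 other probe sets with 1 gene, those whose change was most like the mean of the 10 members over the same 50 arrays were TSR2, RPF2, IMP4, PUF6, CIC1, NIP7, RLP7, NOP1, ECM1 and SPB1, with r from 0.992 for TSR2 to 0.985 for SPB1. The profiles most like RRN3 were IKI1 (r = 0.95), RMI1 (0.93), YNL165W (0.92), BRE5 (0.92) and SCH9 (0.92), a list read out after RRN3 had been seen to stand apart. These values describe likeness over arrays that share cultures, and no test was made.

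**Figure D5:**
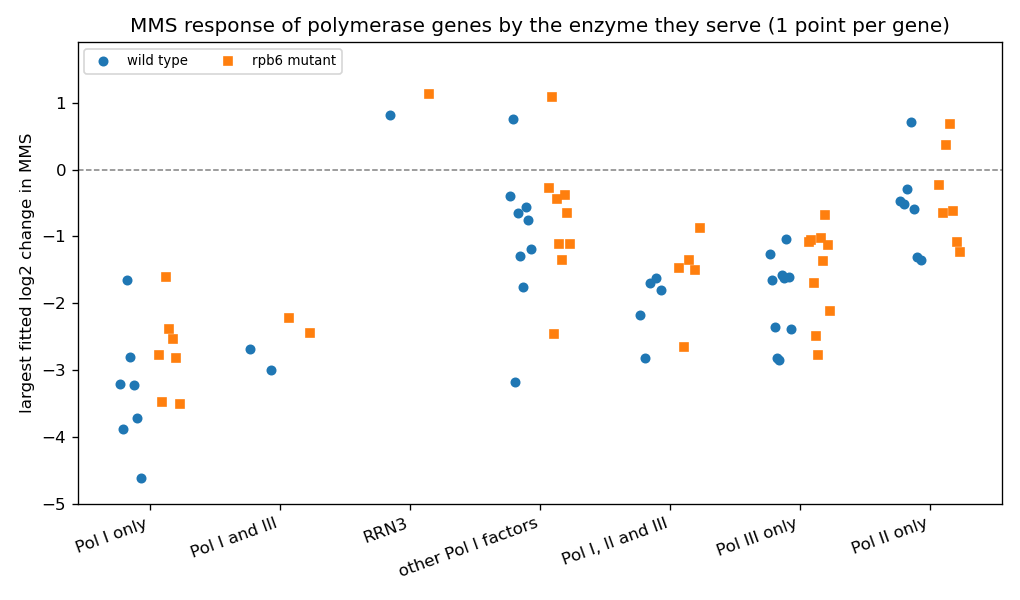
Largest fitted log2 change in the MMS course for each gene of the RNA polymerases, 1 point per gene, grouped by the enzyme it serves, with circles for the wild type and squares for the rpb6 mutant. The 7 subunits found only in RNA polymerase I lie between -1.66 and -4.60 in the wild type, the 10 found only in RNA polymerase III between -1.04 and -2.84, and the 7 found only in RNA polymerase II between -1.36 and 0.71.

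The other polymerases give a scale for these changes, since their subunits were measured on the same arrays. In wild-type MMS the median response was -3.21 for the 7 subunits found only in RNA polymerase I, -1.64 for the 10 subunits of RNA polymerase III only and -0.51 for the 7 of RNA polymerase II only, against 0.21 for all tested probe sets. The 10 RNA polymerase III genes all passed as lower in both strains. Wild-type values were -2.84 ± 0.29 for RPC31, -2.81 ± 0.27 for RPC25 and -2.38 ± 0.25 for RPO31, its largest subunit. Of the RNA polymerase II genes 6 passed as lower in the wild type and RPB4 as higher (0.71 ± 0.11), with the largest subunit RPO21 at -1.36 ± 0.13. The shares of all probe sets that passed as lower in MMS were 41.4% (wild type) and 39.2% (mutant).

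All 5 subunits shared by the 3 enzymes passed as lower in MMS in both strains. The median was -1.80 in the wild type, with RPB5 lowest at -2.82 ± 0.15, and -1.47 in the mutant, with RPB5 lowest at -2.65 ± 0.15. The mutated subunit's own gene RPO26 changed by -1.80 ± 0.22 in wild-type cells (at 100 min) and by -0.87 ± 0.24 in mutant cells (at 40 min). Its strain difference in MMS, 1.40 ± 0.28, did not pass (adjusted p = 0.0583, limma). In wild-type H2O2 the RNA polymerase III genes again all passed as lower (median -0.77), as did 4 of the 5 shared genes (median -0.57), whereas 2 of 7 RNA polymerase II genes did, RPO21 at -0.38 ± 0.08 and RPB9 at -0.43 ± 0.07. The share of all probe sets that passed as lower in that course was 28.3%. In the mutant 2 of 10, 0 of 5 and 0 of 7 passed as lower, where 10.4% of all probe sets did.

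The remaining factors of RNA polymerase I did not move as 1 group. The upstream and core factor genes (RRN5, RRN6, RRN7, RRN9, RRN10, RRN11 and UAF30), the TATA-binding protein gene SPT15 and HMO1, which binds the ribosomal DNA, numbered 9. In wild-type MMS 8 of them passed as lower and RRN10 as higher, where 41.4% and 45.9% of all probe sets did. RRN11, of the core factor, was at -3.17 ± 0.47 and HMO1 at -0.39 ± 0.08. In wild-type H2O2 6 passed as lower, led by RRN11 (-1.56 ± 0.14) and RRN7 (-1.22 ± 0.10), and SPT15 passed as higher (0.32 ± 0.06). There 28.3% of all probe sets passed as lower, and 1540 of the 5498 as higher.

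Genes for DNA-binding regulators of ribosome biogenesis promoters were read beside them. TOD6, a repressor, changed by -5.06 ± 0.16 in wild-type MMS (adjusted p = 6.76e-09, limma), by -4.42 ± 0.16 in mutant MMS and by -2.09 ± 0.23 in wild-type H2O2. Its relative DOT6 changed by 0.48 ± 0.08 in wild-type MMS. In H2O2 DOT6 did not pass in the wild type (-0.16 ± 0.06) and passed as lower in the mutant (-0.28 ± 0.06). STB3, another repressor, changed by 0.51 ± 0.07 in wild-type H2O2. In MMS STB3 did not pass in the wild type (0.38 ± 0.13) or the mutant (0.16 ± 0.13). SFP1, an activator, changed by -0.30 ± 0.08 in wild-type H2O2 (adjusted p = 0.0348, limma). In MMS SFP1 did not pass in the wild type (-0.28 ± 0.09, adjusted p = 0.0564, limma) and passed as lower in the mutant (-0.51 ± 0.09). For the reference decay slopes the strain difference passed as higher for 17.7% of all probe sets. It did so for 6 of 10 RNA polymerase III genes and 4 of 5 shared genes. Among RNA polymerase II genes 2 of 7 passed as higher, and 1 of the 9 other factors. The medians were 0.0159, 0.0116, 0.0009 and 0.0038 per min, beside 0.0223 for the 10 members and -0.0012 for all probe sets.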

How the data were processed

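RNA of 58 arrays (Affymetrix Yeast 2.0, cDNA primed from the poly(A) tail) was analysed from the authors' deposited log2 values, which they made with RMA. The paper does not state how arrays were grouped for RMA. Normalization in 3 separate sets, whose array medians differ, was assumed. The deposited table of fold changes holds the authors' own comparisons and was not used. Of 10928 probe sets, 7244 have 1 listed symbol, 1 has several and 3683 have none, and 5498 matched 1 gene of the RefSeq R64 table and were tested, with 12 symbols updated. Array number and signal over background limit the precision. The members and all gene lists were chosen with earlier results of these data known. All 10 members, up to 4 genes of each list and the 10 nearest profiles were named.

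limma 3.58.1 (R 4.3.3) fitted natural splines with 3 degrees of freedom per strain, decay slopes, and untreated strain contrasts with the array set as a replicate block. Spline p-values come from F tests of a whole curve or of the difference between both curves. P-values were adjusted by Benjamini-Hochberg over all tested probe sets, at 0.05. The 0 min arrays of 1 set were taken as normalized together. After removing strain means the same-numbered arrays of both strains correlate at 0.665, 0.820 and 0.738. Fits were tested on simulated data. Alternatives covered centring, joint quantile normalization, a filter on dim probe sets, a trended prior, 2 spline degrees of freedom, the block, the decay range, the doubted arrays and each time point or replicate left out. A promoter motif search was not run. Python 3.11.15 with numpy 2.4.6, pandas 2.3.3 and matplotlib 3.10.9 did the rest.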

Additional observations from a re-analysis of the deposited data

Results flagged for a closer look

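Results are listed here because the strains differed by a test of the difference itself. In the reference decay courses the slope of the mutant exceeded that of the wild type by 0.0379 log2 per min for RPA190, 0.0356 for RPA135, 0.0395 for RPA49, 0.0406 for RPA43, 0.0207 for RPA34, 0.0239 for RPC40 and 0.0175 for RPC19. In the decay courses with H2O2 the excess was 0.0310 for RPA190, 0.0322 for RPA135, 0.0385 for RPA49, 0.0342 for RPA43, 0.0269 for RPA12, 0.0282 for RPC40 and 0.0235 for RPC19. Each value compares 1 culture of the mutant with 1 of the wild type. By rank among all slopes RPA34 and RPC19 were not lost more slowly in the mutant reference. At 50 min fewer of all probe sets were more than 2-fold below their start in the mutant decay courses. The part of this in the slope differences was not tested.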

How the results depend on the processing

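Under the alternatives 1426 of 1490 gene-level results kept their side of the threshold, and those called among them kept their direction. For results that passed in neither fit the direction was not compared. Another 34 lost and 25 gained the call, and 5 reversed. The 5 are all RRN3 in wild-type MMS, at -0.85 with centred arrays and -0.88, -0.89, -0.90 and -0.91 without the 80, 120, 140 and 180 min arrays (0.94 without 40 min), where the early dip exceeds the late rise. In the mutant H2O2 response the 2 members called became 1 with centred arrays and 1, RPA43 in place of both, with 2 spline degrees of freedom, and 0 to 3 with 1 time point left out (0 without 10 min, where RPA135 and RPC40 are both lost). In the wild-type change of decay slope 2 became 1 with centred arrays, 0 over the first 30 min and 0 to 4 with 1 time point left out (0 without 5, 40 or 50 min, 4 without 20 min). In the mutant that count became 1, RPA34, without the 10 and 20 min reference arrays and 1 with them exchanged. A trended prior raised the H2O2 strain difference from 0 to 1 member, RPA135, and the 7 min H2O2 contrast from 0 to 3, RPA34, RPA12 and RPC19. The wild-type H2O2 call of RRN3 was lost with centred arrays, with joint quantile normalization and without 5, 10, 15, 35 or 45 min. The reference slope difference passed for 5 to 8 members and that in H2O2 for 7 to 8 with 1 time point left out. In the reference difference RPA34 is lost without 0, 5, 10 or 40 min and RPC19 without 5 or 40 min. For untreated cells no replicate block left 0 members and 1 probe set called, against 132 with the block. The causes were not tested. Having 1 array per time limits the precision of all of these counts.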
